A study of Gossypium hirsutum with 6 samples.

Results

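The transcripts described here are those with a higher level in both height mutants of upland cotton than in the wild type they came from. They are 233 of the 9345 assembled transcripts with a mean of 15 RPKM or more over the 3 libraries (2.49%), and they lie in 164 of the 70875 components of the assembly. They were chosen by their own measured values: a mean of 15 RPKM or more, a value above 0 in the wild type, and a level in each mutant of at least 2 times that in the wild type. RPKM counts the reads of a transcript scaled by its length and by the number of reads mapped in the library. A component is a group of transcripts that the assembler Trinity built together, and it is read from the transcript name without its last number.

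The libraries were made from stem apexes of Gossypium hirsutum seedlings with 5 true leaves, grown in pots in a greenhouse. The mutants are A1, the dwarf Ari1327, and A3, the tall-culm line Ari3697, both obtained by gamma irradiation of the wild type A9, Ari971. Each mutant is a single line, and the number of plants behind a library is not given in the sources used here. The labels and the methods speak of equal RNA of the lines combined for library making, yet the genotype label gives each library 1 line, and the libraries were treated in that way here.

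There was 1 mRNA library per line, so no difference below has a replicate check, no test was possible, and every value describes these libraries. Both ratios have 1 A9 library below the line, so a low reading there lifts both of them, and a property of that library and a change common to both mutants cannot be told apart. In whole stem apexes, more cells of a type and more RNA per cell cannot be told apart either. Summed RPKM came to 805778 for A1, 798674 for A3 and 800227 for A9. Over the 9345 transcripts the median ratio was 0.989 for A1 over A9 and 0.999 for A3 over A9, so the scale of the libraries was close.

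The stem apex holds the shoot apical meristem, the youngest leaves and the internodes that have yet to lengthen. Final plant height depends on how many cells the meristem and the zone below it supply and on how far the cells of each internode then elongate. Gibberellin, auxin and brassinosteroid promote that elongation in many plants. The files give no gene name for an assembled transcript, and 0 of the transcript names occur in the RefSeq gene table of the species. The transcripts are therefore called by their assembly names, no role is given for them, and the tissue could not be checked by marker genes. Function texts exist only for predicted miRNA targets, and 0 of the 512 transcripts listed as such targets are among the 233. Only 81 of the 512 had the mean of 15 RPKM that the rule needs, and 2.49% of all 9345 belonged, so nothing is read from this 0.

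The 233 transcripts ran at moderate to high levels in the mutants and mostly at low levels in the wild type. Their RPKM ran from 18.37 through a median of 48.63 to 910.19 in A1, from 9.47 through 28.09 to 573.49 in A3, and from 0.75 through 8.58 to 172.36 in A9. Over all 9345 transcripts the medians were 26.14 in A1, 25.46 in A3 and 25.49 in A9. Seen against these, the median transcript of the group stood above the typical level in both mutants and below it in the wild type. By the rule each mutant had at least 2 times the A9 level, at a mean of 15 RPKM or more. This contrast is therefore bound up with the rule, and so are the gaps to A9 in the counts and shares that follow. Nothing is read from either. At least 100 RPKM was reached by 62 of the 233 in the A1 library, by 31 in A3 and by 5 in A9. Together they held 2.48% of the summed RPKM in A1, 1.53% in A3 and 0.497% in A9.

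**Figure D1:**
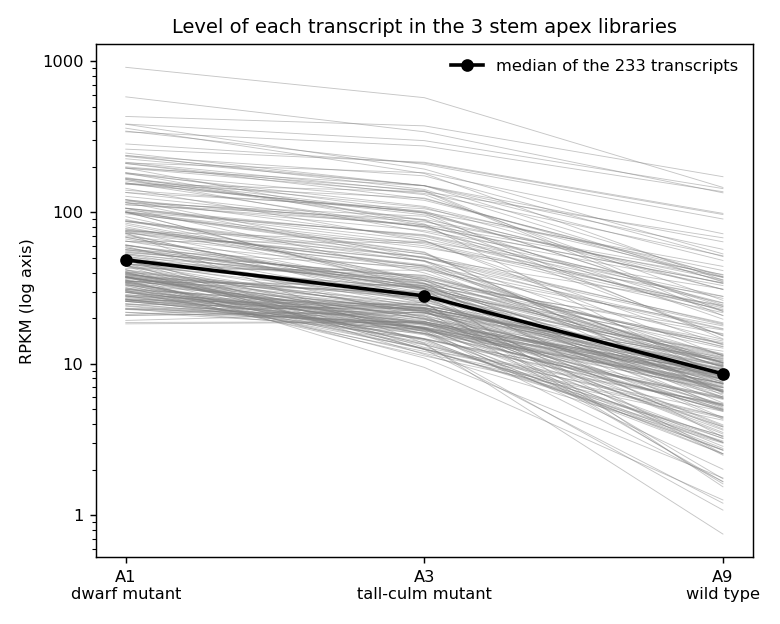
RPKM on a log axis for each of the 233 transcripts (grey lines) in the 1 library each of A1, A3 and A9, with the median of the 233 in black. The medians are 48.63 in A1, 28.09 in A3 and 8.58 in A9. Lines mostly slope down between A1 and A3, and all slope down between A3 and A9 because the rule required it.

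Many of the transcripts entered through their mutant values alone. In A9, 168 of the 233 were under 15 RPKM, and such a transcript could reach the mean of 15 only through its mutant values, so it had to differ. The other 65 had at least 15 RPKM in A9 itself, and they are 0.705% of the 9216 transcripts at that level. In A9, 49 were under 5 RPKM and 10 under 2 RPKM. From the RPKM and listed length of 259 other transcripts, 1 read was worth about 0.0724 RPKM in A1, 0.0743 in A3 and 0.0666 in A9 for a transcript of 1000 bases, and whether this unit is a read or a pair of reads is not settled. The lengths of the 233 are not known. The A9 values of those 10 would rest on 3.38 to 7.93 reads each if the transcripts had 300 bases and on 11.3 to 26.4 reads if they had 1000 bases, so the ratios of these transcripts are the least precise.

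The ratio of A1 to A9 ran from 2.11 to 97.4 with a median of 5.52, and that of A3 to A9 from 2.01 to 20.6 with a median of 3.07. The lower end of each is set by the rule. Among all 9345 transcripts, 419 (4.48%) had at least 2 times the A9 level in A1 and 269 (2.88%) had it in A3. The 233 make up 55.6% of the A1 list and 86.6% of the A3 list, so 186 transcripts passed in A1 without A3 and 36 passed in A3 without A1. A ratio of at least 4 was found for 164 of the 233 in A1 and for 77 in A3, and all of the 77 had it in both. At 8 or more the numbers were 72 in A1 and 15 in A3, again with all 15 in both. Both ratios share the A9 value and the rule required both to be high, so these overlaps are bound up with it. Shares over all 9345 transcripts were not counted at 4 or 8, and nothing is read from these counts.

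A library can stand apart from the other pair in either direction. A9 was at most 0.5 times both mutants for the 233 transcripts (2.49% of the 9345) and at least 2 times both for 48 (0.514%). A1 was at least 2 times both other lines for 92 transcripts and at most 0.5 times both for 15. A3 was at least 2 times both others for 6 and at most 0.5 times both for 8. By this count A9 was the line that most often stood alone, followed by A1, and A3 the one that seldom did. The 233 are the list that the rule made, and each line has 1 library, so nothing is read from this order.

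The 10 largest ratios belonged to transcripts with 0.75 to 7.94 RPKM in the wild type. They were ranked by the smaller of the ratios to A9. comp36020_c0_seq1 had 100.59 RPKM in A1 and 31.72 in A3, against 1.54 in A9, which is 65.3 and 20.6 times the wild type level. comp29744_c0_seq1 had 73.03 in A1 and 13.64 in A3, against 0.75 in A9, the lowest A9 level of all 233. Only these reached 16 times the A9 level in both mutants, and in both of them A1 was more than 3 times A3.

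A more even pair of mutant levels was seen in the next ones. comp30190_c0_seq1 had 38.82 RPKM in A1 and 25.23 in A3, against 1.61 in A9. comp21767_c0_seq1 had 27.95 in A1 and 22.67 in A3, against 1.66 in A9. comp16760_c0_seq1 had 37.94 in A1 and 28.31 in A3, against 2.54 in A9. In these 3 the A1 level was between 1.23 and 1.54 times the A3 level. comp9981_c0_seq1 was the exception in direction, with 21.18 RPKM in A1 and 25.40 in A3, against 1.74 in A9. It is the only one of the 10 largest in which A3 was the higher mutant.

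The remaining 4 of these 10 again had A1 well above A3. comp31602_c0_seq1 had 196.76 RPKM in A1 and 83.89 in A3, against 7.94 in A9, and it combined a high level with a large ratio. comp37506_c0_seq1 had 90.01 in A1 and 34.23 in A3, against 3.28 in A9. comp27006_c0_seq1 had 40.41 in A1 and 13.40 in A3, against 1.08 in A9. comp12773_c0_seq1 had 33.76 in A1 and 12.46 in A3, against 1.20 in A9. Their A1 levels were 2.35 to 3.02 times those in A3, and all 10 transcripts carry the number seq1 of a c0 component.

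**Figure D2:**
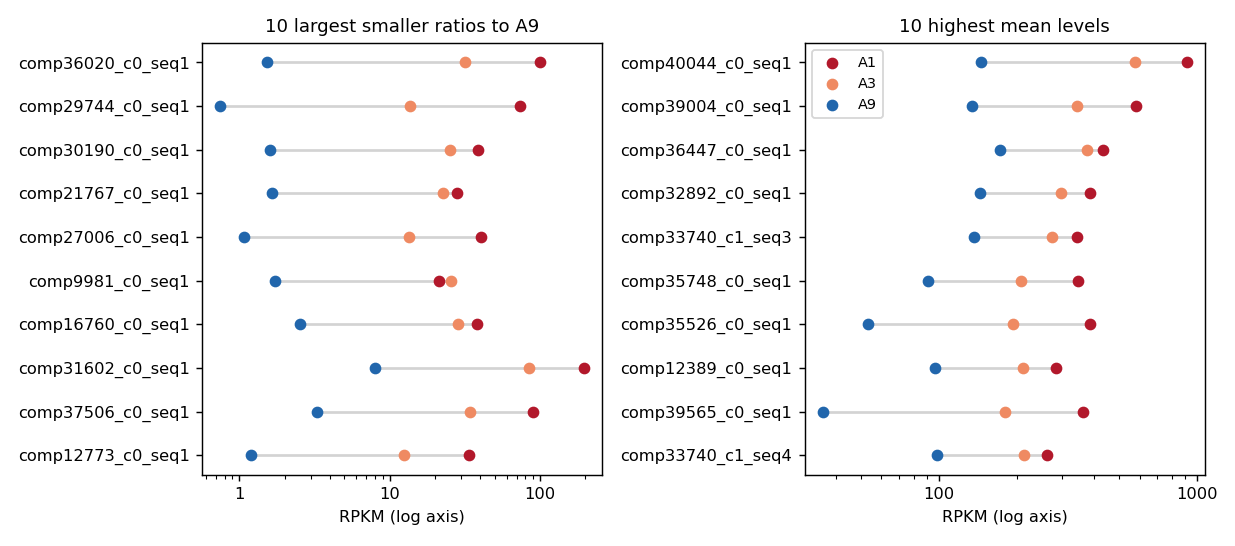
RPKM on a log axis in A1 (dark red), A3 (orange) and A9 (blue), 1 library each, for the 10 transcripts with the largest smaller ratio to A9 (left) and the 10 with the highest mean level (right). On the left A9 lies between 0.75 and 7.94 RPKM. On the right it lies between 35.67 and 172.36 RPKM, and the gaps to the mutants are narrower.

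The most abundant transcripts had smaller ratios at far higher wild type levels. comp40044_c0_seq1 was the highest, with 910.19 RPKM in A1 and 573.49 in A3, against 146.36 in A9. comp39004_c0_seq1 had 580.88 in A1 and 341.23 in A3, against 134.86 in A9. comp36447_c0_seq1 had 431.04 in A1 and 373.59 in A3, against 172.36 in A9. At a given length these A9 values rest on far more reads than those of the transcripts with the largest ratios, while differences between plants were not measured.

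Others of similar abundance stood just above the limit of 2 in A3. comp32892_c0_seq1 had 383.99 RPKM in A1 and 298.35 in A3, against 143.85 in A9. comp12389_c0_seq1 had 283.69 in A1 and 211.72 in A3, against 96.96 in A9. comp35748_c0_seq1 had 345.00 in A1 and 207.92 in A3, against 90.57 in A9. Their A3 ratios were between 2.07 and 2.30. A pair of transcripts of the component comp33740_c1 belonged here as well. comp33740_c1_seq3 had 341.19 RPKM in A1 and 275.18 in A3, against 137.17 in A9, and comp33740_c1_seq4 had 262.12 in A1 and 214.57 in A3, against 98.64 in A9.

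The last of the 10 most abundant changed more. comp35526_c0_seq1 had 383.01 RPKM in A1 and 193.53 in A3, against 53.25 in A9. comp39565_c0_seq1 had 360.50 in A1 and 180.96 in A3, against 35.67 in A9, which is 10.1 and 5.07 times the wild type level. In both of these the A1 level was close to 2 times that in A3, whereas comp36447_c0_seq1 had nearly the same level in both mutants, with an A1 over A3 ratio of 1.15.

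The share of transcripts that belonged to the group differed with abundance. It was 105 of 4527 (2.32%) at a mean of 15 to 25 RPKM, 59 of 2924 (2.02%) at 25 to 50, 41 of 1235 (3.32%) at 50 to 100 and 28 of 659 (4.25%) at 100 or more. The mean includes the mutant values that the rule required to be high, so these shares are a description of the group and nothing is read from their order.

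At the limits of the rule the values run on without a step. Just inside on the ratio were comp33740_c1_seq3, given above, comp46573_c0_seq2 with 28.44 RPKM in A1 and 24.34 in A3, against 12.12 in A9, and comp40591_c0_seq1 with 155.06 in A1 and 137.24 in A3, against 68.03 in A9. Just outside were comp39481_c0_seq1 with 35.86 in A1 and 16.19 in A3, against 8.11 in A9, comp14318_c0_seq1 with 27.99 in A1 and 22.27 in A3, against 11.19 in A9, and comp21911_c0_seq1 with 47.78 in A1 and 30.71 in A3, against 15.58 in A9. In all 6 it was A3 that stood at the limit. On the mean level, comp41545_c0_seq2, comp44629_c0_seq2 and comp35061_c0_seq1 were just inside with 15.1 to 15.3 RPKM, and comp42137_c1_seq1, comp42615_c1_seq1 and comp10243_c0_seq1 just outside with 14.7 to 14.8 RPKM.

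The rule used the levels of both mutants but set no limit on their ratio to each other. Here the 233 transcripts leaned to 1 side. The dwarf mutant had the higher level for 226 of them (97%) and the tall-culm mutant for 7, while A1 was above A3 for 49.9% of all 9345 transcripts. The ratio of A1 to A3 had a median of 1.66 among the 233, or 0.73 on the log2 scale, with a range of 0.834 to 5.35. Its median over all 9345 transcripts was 1.0. At least 2 times the A3 level was found in A1 for 68 of the 233 (29.2%), against 1.14% of all 9345, which is 107 transcripts. The 107 include the 68. The rule needed raised values in both mutants, so the size of this contrast is bound up with it and nothing is read from that size. In the reverse direction, 0 of the 233 and 27 of the 9345 had an A1 level of at most 0.5 times that in A3.

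On the log2 scale, the difference of A3 from A9 was 70.2% of that of A1 in the median transcript, with a range of 38.5% to 111.5%. Among the 48 transcripts lower in both mutants, A1 was the lower mutant for 31 (64.6%), and the median ratio of A1 to A3 was 0.959. For 35 of these 48 the mutants were within 1.25 times of each other, which was so for 34 of the 233.

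**Figure D3:**
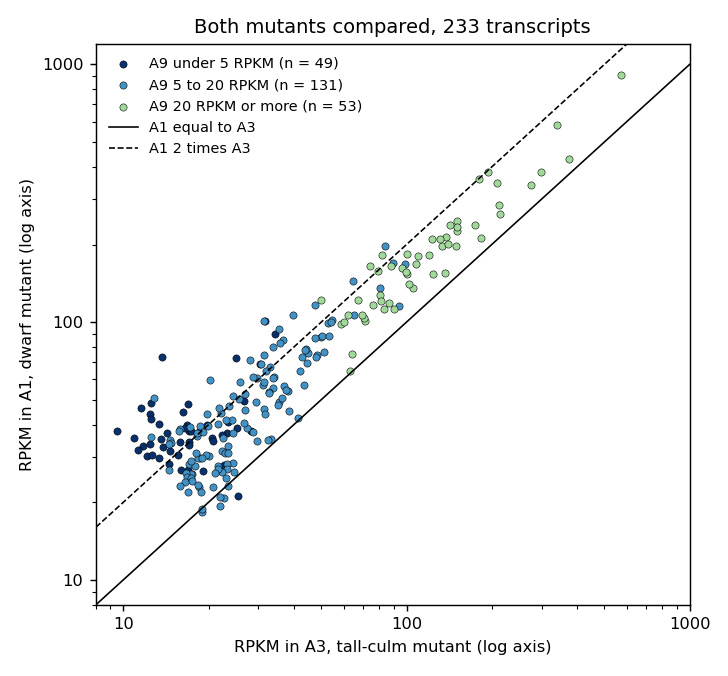
RPKM in A1 against RPKM in A3, both on log axes, for the 233 transcripts, coloured by their A9 level. The solid line marks equal levels and the dashed line an A1 level of 2 times A3. Of the points, 226 lie above the solid line and 68 lie on or above the dashed line, 32 of these with under 5 RPKM in A9 (dark blue).

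The A1 over A3 ratio is given next by wild type level. Of the 49 transcripts under 5 RPKM in A9, 32 had at least 2 times the A3 level in A1, with a median ratio of 2.23. From 5 to 10 RPKM in A9 it was 30 of 88, with a median of 1.71. From 10 to 20 RPKM it was 3 of 43, and at 20 RPKM or more 3 of 53, with medians of 1.52 and 1.54. The median was above 1 in each of these A9 ranges. Transcripts under 15 RPKM in A9 needed high mutant values to reach the mean, so the differences between the ranges are bound up with the rule and nothing is read from them. Of the 28 transcripts with a mean of 100 RPKM or more, 0 reached 2 times.

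Grouped by that ratio, the 34 transcripts with an A1 level under 1.25 times A3 had median levels of 28.1 RPKM in A1 and 24.5 in A3, against 10.2 in A9. The 131 with a ratio of 1.25 to 2 had 56.9 in A1 and 36.4 in A3, against 10.8 in A9. The 68 with a ratio of 2 or more had 44.5 in A1 and 17.8 in A3, against 5.21 in A9. These last had the lowest medians in A3 and in A9, but not in A1.

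The transcripts at both ends of the ratio show its range. comp38148_c0_seq1 had 46.35 RPKM in A1 and 11.54 in A3, against 2.99 in A9, and comp9434_c0_seq1 had 37.96 in A1 and 9.47 in A3, against 1.26 in A9. Together with comp29744_c0_seq1, given above, they are the 3 with an A1 level of at least 4 times that in A3. Next were both transcripts of comp43122_c0, with 50.97 in A1 and 12.84 in A3, against 5.42 in A9, for comp43122_c0_seq2, and 48.63 in A1 and 12.48 in A3, against 4.85 in A9, for comp43122_c0_seq1. Here A3 stood nearer to the wild type than to the dwarf mutant in RPKM.

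At the other end, comp26900_c0_seq1 had 19.35 RPKM in A1 and 21.90 in A3, against 6.61 in A9. comp39987_c0_seq1 had 20.86 in A1 and 22.62 in A3, against 8.32 in A9. comp45169_c0_seq2 had 20.92 in A1 and 21.91 in A3, against 7.94 in A9, and comp46954_c1_seq5 had 18.37 in A1 and 18.90 in A3, against 8.70 in A9. With comp9981_c0_seq1 these are 5 of the 7 in which A3 was the higher mutant, and all 5 were low in abundance, at means of 15.3 to 17.3 RPKM. Except for comp9981_c0_seq1, whose A1 over A3 ratio was 0.834, the mutants differed by little in them.

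The 164 components were mostly small. A single transcript made up 102 of them (62.2%), beside 55.5% of the 6219 other components that hold a transcript of 15 RPKM or more. The other 62 have several transcripts, and in 20 of these every transcript belonged to the 233. At least 2 transcripts of the group were found in 38 components, 107 of the 233 in all. Reads that fit several transcripts of a component may have been shared out among them, so these transcripts are not independent of each other. Within those 38 components the largest ratio of A1 to A9 was a median of 1.12 times the smallest, and for A3 to A9 it was 1.08 times, with extremes of 3.97 and 2.74.

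In 42 components other transcripts stood beside those of the group. They number 211, of which 201 had a mean of at least 1 RPKM. Of these 201, 143 (71.1%) were above A9 in both mutants and 34 below in both. At least 2 times the A9 level in both mutants was found for 63 (31.3%), all with a mean under 15 RPKM, since a transcript of 15 RPKM or more with such ratios belongs to the 233 by the rule. Below 15 RPKM it was 63 of 182 (34.6%), against 1.35% of the 9655 transcripts of 1 to 15 RPKM in other components that hold a transcript of 15 RPKM or more. That set of other components holds none of the 233, which lowers its share by the way it was made. The 19 transcripts of 15 RPKM or more in the 42 components that did not enter the group were above A9 in both mutants in 17 cases.

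Among the 201 transcripts the median ratio to A9 was 1.41 in A1 and 1.30 in A3. For the 182 under 15 RPKM it was 1.32 and 1.28, beside 1.01 and 1.02 for transcripts of 1 to 15 RPKM in the other components. The dwarf mutant had the higher level than A3 for 135 of the 201 (67.2%). Under 15 RPKM this was so for 122 of the 182 (67.0%), against 47.2% in the other components. By component, all of the other transcripts reached 2 times in both mutants in 13 of the 42, some of them in 14 and none in 15. In components of up to 5 transcripts it was 19 of 35 (54.3%), and in larger ones 44 of 166 (26.5%). All 11 others of comp40073_c0 are among the 44, and so are many of comp45305_c0, each of these with under 1 RPKM in A9. Transcripts of a component may share reads, so they are not separate cases in these shares. The transcripts that accompany the group thus reached 2 times in both mutants in some components and not in others. Falling short of 2 times in both was not the same as staying near A9. Named after their values were seen, comp31230_c0_seq3 had 5.66 times the A9 level in A1 and 1.64 times in A3, while comp30360_c0_seq2 had 0.559 and 0.587 times.

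**Figure D4:**
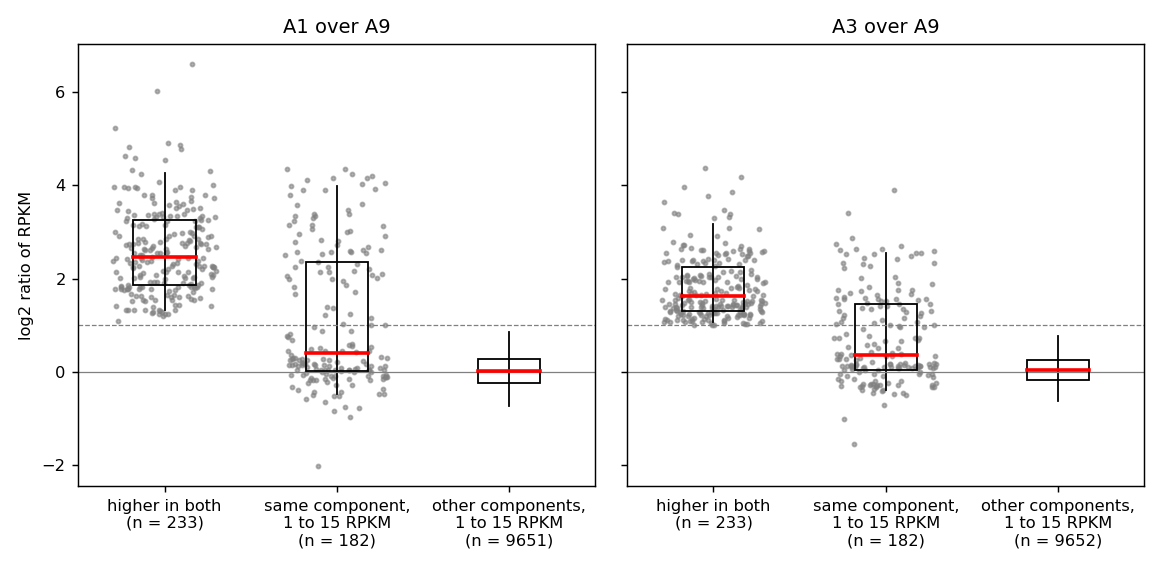
Log2 ratio of RPKM to A9 in A1 (left) and A3 (right) for the 233 transcripts, for 182 other transcripts of 1 to 15 RPKM in their components, and for transcripts of 1 to 15 RPKM in other components, ratios of 0 left out. Boxes span the quartiles with the median in red, vertical lines run from the 5th to the 95th percentile, grey points are single transcripts and the dashed line marks 2 times A9. Same-component points spread from below the wild type level to the level of the 233, with medians of 0.40 in A1 and 0.35 in A3, beside 0.02 and 0.03 in other components.

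The components with the most transcripts in the group showed both patterns. In comp39172_c0, 7 of 8 transcripts belonged to the group, at 25.03 to 35.48 RPKM in A1 and 16.58 to 22.50 in A3, against 7.16 to 8.93 in A9. The eighth, comp39172_c0_seq8, had 21.70 in A1 and 14.63 in A3, against 6.59 in A9, and missed only the mean of 15. In comp33923_c0 all 6 belonged, at 73.36 to 211.04 RPKM in A1 and 48.05 to 131.15 in A3, against 8.54 to 26.26 in A9. The whole component moved in both of these, with A1 over A3 ratios of 1.48 to 1.69 in every transcript.

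Nearly all transcripts belonged to the group in comp36156_c0 and comp38978_c0 too. In comp36156_c0, 5 of 6 belonged, at 30.99 to 56.40 RPKM in A1 and 22.84 to 37.58 in A3, against 10.70 to 13.56 in A9. The sixth, comp36156_c0_seq1, had 34.15 in A1 and 26.90 in A3, against 14.06 in A9, so its A3 ratio of 1.91 fell short. In comp38978_c0, 4 of 5 belonged, at 76.05 to 99.59 in A1 and 45.04 to 52.86 in A3, against 16.93 to 18.38 in A9. The A1 over A3 ratios of these transcripts were 1.36 to 1.52 in comp36156_c0 and 1.69 to 1.88 in comp38978_c0.

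comp46525_c1 was divided. Of its 27 transcripts, 5 belonged to the group, at 34.49 to 49.45 RPKM in A1 and 18.51 to 26.66 in A3, against 3.03 to 4.31 in A9, and their ratios were close to each other, at 10.03 to 12.36 for A1 and 5.85 to 6.19 for A3. The 18 others with at least 1 RPKM had 0.71 to 2.39 RPKM in A1 and 0.93 to 2.35 in A3, against 0.96 to 2.14 in A9. Their A1 levels were 0.740 to 1.18 times those in A9, and their A3 levels 0.749 to 2.0 times. The upper end in A3 is comp46525_c1_seq6, with 0.71 RPKM in A1 and 1.92 in A3, against 0.96 in A9. A transcript of this component, comp46525_c1_seq15, is the only one of any of the 164 components listed as a predicted miRNA target, of ghr-miR482a, with no function text.

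**Figure D5:**
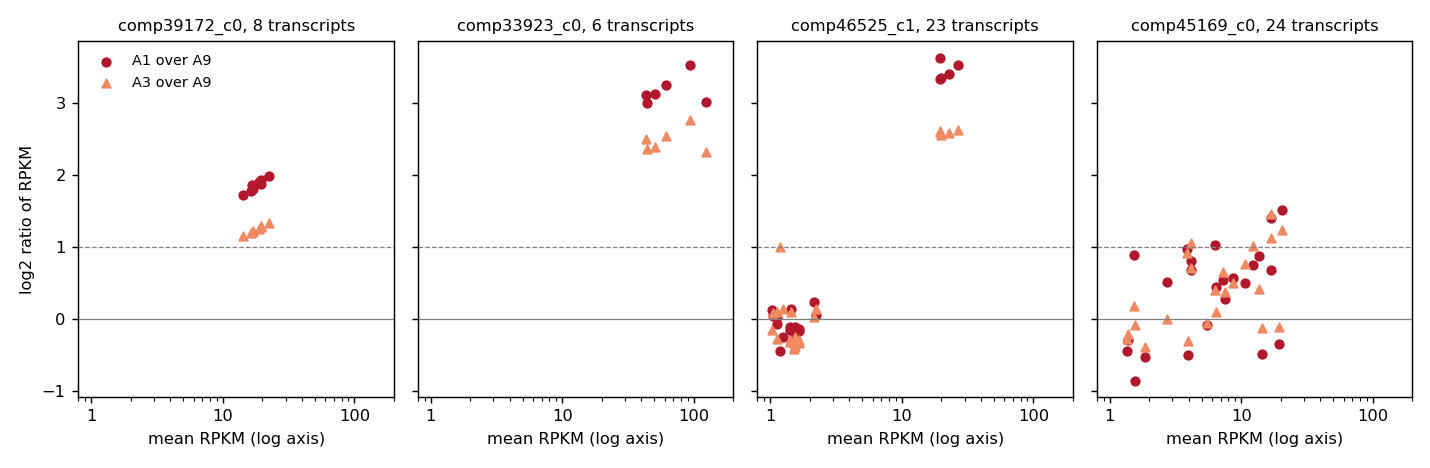
Log2 ratio of RPKM to A9 against the mean RPKM over the 3 libraries (log axis) for the transcripts with at least 1 RPKM of 4 components, with A1 over A9 as dark red circles and A3 over A9 as orange triangles. The dashed line marks 2 times A9. In comp39172_c0 and comp33923_c0 every transcript lies above it, in comp46525_c1 5 transcripts stand apart from 18 others, of which 1 reaches the line in A3 alone, and in comp45169_c0 the values spread around 0 with 2 transcripts of the group at the top.

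RPKM was then summed over all transcripts of each component. RPKM is scaled by length and the lengths are not known, so reads shared out differently between transcripts of unlike length would still change such a sum. The sum was at least 2 times that in A9 in both mutants for 147 of the 164 components. These are also all such components among the 6383 with a transcript of 15 RPKM or more (2.30%), and since the transcripts of the group are part of their own sums, nothing is read from that share. For the 102 components of 1 transcript the sum is the transcript itself and adds nothing, and among the 62 with several it was 45. Over all 164, the 102 of 1 transcript included, the sums had a median of 4.85 times A9 in A1 and 2.81 times in A3. A1 was above A3 in 158 of the 164. These values in large part repeat those of the transcripts themselves, so nothing further is read from them.

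Of the 17 components whose sum fell short, 12 had at least 2 times the A9 level in A1 and 0 had it in A3, and 13 were above 1.5 times in both. The sums that differed least, among components with at least 5 transcripts of 1 RPKM or more, were those of comp46954_c1, with 43.46 RPKM in A1 and 46.15 in A3, against 33.97 in A9, and comp46573_c0, with 72.19 in A1 and 67.10 in A3, against 52.81 in A9. Each holds 1 transcript of the group and 8 others of at least 1 RPKM. The 8 others of comp46954_c1 had A1 levels of 0.883 to 1.07 times A9, so in A1 the difference of that sum lay in comp46954_c1_seq5.

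The other components of this kind had larger sums. comp45169_c0, with 2 of 25 transcripts in the group, summed to 213.17 RPKM in A1 and 217.65 in A3, against 150.80 in A9. comp30795_c0 summed to 181.96 in A1 and 178.85 in A3, against 95.26 in A9, and comp39545_c0 to 424.88 in A1 and 374.51 in A3, against 192.68 in A9. Only comp30360_c0, named after its values were seen, was below the wild type in both sums, with 108.01 RPKM in A1 and 107.27 in A3, against 151.85 in A9. Its transcript of the group, comp30360_c0_seq1, had 25.88 in A1 and 21.14 in A3, against 5.01 in A9, while comp30360_c0_seq2 had 82.13 in A1 and 86.13 in A3, against 146.84 in A9. The transcripts of this component moved in opposite directions in both mutants.

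Function texts of the predicted miRNA targets gave short lists of related transcripts to set beside the group, at any level. Of 11 transcripts with hormone texts, 1 had at least 2 times the A9 level in A1 and 2 had it in A3. Of 9 with cell wall texts, 1 had it in A1 and 1 in A3. Of 19 with transcription factor texts, 0 had it in A1 and 1 in A3, and of 10 with translation texts and 6 with stress or chaperone texts 0 had it in either mutant. Of the 512 predicted targets, 81 had a mean of 15 RPKM or more, and 0 of those 81 reached 2 times the A9 level in A1 or in A3. Over all 9345 transcripts, which have a mean of 15 RPKM or more, the shares were 4.48% in A1 and 2.88% in A3. The lists were counted at any level, so these shares match the 81 in level but not the lists. The counts of the lists and of the 81 are too small to be read against the shares over all transcripts.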

How the data were processed

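Adaptors and reads of low quality were removed from the mRNA libraries by the authors, who assembled the clean reads de novo with Trinity (trinityrnaseq_r2012-10-05) and deposited, for each line, an RPKM value per assembled transcript, written to 2 decimals. The read mapper and the treatment of reads that fit several transcripts are not given in the sources used here. Small RNA libraries of the series were not used.

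The 3 tables were joined by transcript name over 156846 transcripts, and ratios of RPKM were taken with no pseudocount. With 1 library per line no test was run. Same-component transcripts were described from a mean of 1 RPKM. The members and the lists were chosen with earlier results of these data known. Named transcripts are the 10 with the highest mean, the 10 with the largest smaller ratio to A9, the 5 with the highest and the 5 with the lowest A1 over A3, the 3 nearest each side of each limit, and those of the 5 components with the most members and the 5 with the least changed sum. A member or a transcript of a member component with a listed miRNA would also be named, and 1 was. Depth was inferred from the lengths listed for 259 transcripts, counting a value as a whole multiple within 0.1, which 92.6% of 54 values in A1, 94.1% of 51 in A3 and 90.2% of 51 in A9 were. No sequence of the transcripts was used here.

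Alternatives tried were a pseudocount of 0.1 or 1 RPKM, other minimum means, other ratios, and scaling by the median ratio (factors of 0.983 for A1 and 0.994 for A3 over A9) or the upper quartile (1.02 for each). A minimum of 15 RPKM on A9 alone was added after seeing the data. Tables were handled with pandas 2.3.3 and numpy 2.4.6 under Python 3.11.15, and figures were drawn with matplotlib 3.10.9. Binomial intervals from scipy 1.17.1 judged whether a share had moved between settings. They treat transcripts as independent, which those of a component are not, so they served as a yardstick and not as a test.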

Additional observations from a re-analysis of the deposited data

How the results depend on the processing

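The number of transcripts higher in both mutants, 233, stayed within 1.5 times (224 to 236) with 0.1 or 1 added to every RPKM and under both other scalings. It was 637, 111 and 69 at a minimum mean of 5, 30 and 50 RPKM, 6529 with no minimum, 525, 116 and 77 at a ratio of 1.5, 3 and 4, and 65 with a minimum of 15 RPKM on A9 alone, chosen after seeing the data. In the same order of settings, component sums of at least the set ratio in both mutants numbered 318, 79 and 56, then 4152, then 305, 72 and 44, and 54. The share with A1 above A3, 97%, was 88.7% at a minimum mean of 5 RPKM, 100% at 30 and at 50 RPKM and on A9 alone, 56.1% with no minimum, 88.0% at a ratio of 1.5 and 99.1% at 3. Among same-component transcripts, the share at the set ratio or more in both mutants was 31.3% at a ratio of 2. It was 23.3% with 1 added, 16.4% at a minimum mean of 5 RPKM and 23.7% at a ratio of 1.5. With no minimum it was 0%, since the rule itself then takes in every such transcript. The share with A1 above A3 was thus lowest with no minimum, and it also fell at a ratio of 1.5 with the minimum of 15 RPKM kept. The cause was not tested. No paired analysis was possible because each line has a single library, and for the same reason no library could be left out. Read sampling limits the ratios of transcripts low in A9, and the spread between plants of a line is unknown.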

Other observations

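The assembler splits some components into subcomponents, which share the number before c0 or c1. For 13 such numbers other subcomponents were listed beside those of the transcripts higher in both mutants, and 77 of their 84 transcripts had a mean of at least 1 RPKM. By the rule, none of the 10 at 15 RPKM or more could have 2 times the A9 level in both mutants without joining the 233, so the count that is free of it is that of the 67 below 15 RPKM. Of all 77, 0 had 2 times the A9 level in both mutants. Among the 9655 transcripts of 1 to 15 RPKM in components without any of the 233, described above, it was 1.35%. A count of 0 is close to that share, so nothing is read from it. Many of the 77 are transcripts of comp41270_c0. The median ratios to A9 of the 77 were 1.09 in A1 and 0.961 in A3. The following were named after their values were seen. comp33740_c0_seq1, a neighbour of the abundant comp33740_c1_seq3, had 50.71 RPKM in A1 and 83.06 in A3, against 61.06 in A9. comp44349_c0_seq1 had 56.41 in A1 and 15.97 in A3, against 19.56 in A9, so it was higher in the dwarf mutant alone. Not counted in the 84, comp39564 has transcripts of the group in both of its subcomponents, with 55.57 RPKM in A1 and 33.66 in A3, against 12.69 in A9, for comp39564_c0 and 31.07 in A1 and 23.50 in A3, against 9.10 in A9, for comp39564_c1. A relation by sequence between subcomponents was not checked here.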
